A study of Mus musculus with 6 samples.

Results

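Interferon-stimulated genes are the genes that cells switch on when an interferon reaches them. The 47 genes described here were listed by symbol, and 46 of the 47 are among the 33017 genes of a table of read counts from mouse small intestine. The 47th symbol, Ddx58, is not in the table under that name. Igtp and Gbp6 are listed at 0 in all 6 libraries, so 44 members remained for the test, out of 15904 genes tested. Each of these 44 had at least 34 counts in every library.

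Messenger RNA was selected by its poly-A tail from frozen small intestine, and each library was made from that tissue. The study compared 3 libraries labelled model (model 1, 2 and 3) with 3 libraries labelled control (control 1, 2 and 3). The series title names immune disorder of the intestine, a combination of radiation with simulated microgravity, and bioactive compounds called CB001, and its design text describes the comparison as one of the joint effect of both factors. The labels do not give what each group received, and they do not give strain, sex, age, dose or time, or name CB001 for any library. Nothing in them says whether separate animals were used for the libraries of a group, so the p-values below cover the spread among these 6 libraries alone, and that spread may be technical. Library totals ran between 35007515 and 45285564 counts.

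Interferons fall into a type I family (interferon alpha and beta), a type II member (interferon gamma) and a type III family (interferon lambda), each with its own receptor. Type I and III receptors signal through JAK1 and TYK2 to ISGF3, a complex containing STAT2 and IRF9 that binds the interferon-stimulated response element (ISRE), whereas interferon gamma signals through JAK1 and JAK2 to gamma-activated sites (GAS) in the DNA. In the gut, epithelial cells respond strongly to interferon lambda, type I interferon acts on most cells of the mucosa, and interferon gamma comes mainly from lymphocytes. The induced proteins sense foreign nucleic acid, amplify or brake the signal, and block replication of viruses or attack the vacuoles of intracellular microbes.

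The promoters of the members hold the ISRE and GAS letters more often than those of all genes. A few stretches are shown as examples, for genes whose values are given below. Windows of 300 bases, 250 before to 50 after each transcription start, came from RefSeq (GRCm38.p6) and were matched by symbol for 34 of the 46 members. The motifs searched on both strands were GAAANNGAAA (TTTCNNTTTC on the other strand) for the ISRE and TTCNNNGAA, which reads the same on both strands, for GAS. At least 1 ISRE match lay in the windows of 22 members (64.7%), against 3.99% of the 27025 genes with a window. At least 1 GAS match lay in those of 10 members (29.4%), against 9.55% of all genes. Both motifs were found in 6 members and neither in 8, and in 1 member a match of one motif overlapped a match of the other. A match is a description of these letters, not evidence that a factor binds there. In the stretches that follow, written 5′ to 3′ on the strand of the gene, capitals mark the ISRE matches, or in Irf1 the GAS match. The Ifit1bl1 stretch lies before 1 of its 2 starts.
Ifit1, chr19:34640765-34640833, plus strand: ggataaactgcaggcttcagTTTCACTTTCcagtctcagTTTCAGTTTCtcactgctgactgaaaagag
Ifit1bl2, chr19:34640765-34640833, minus strand: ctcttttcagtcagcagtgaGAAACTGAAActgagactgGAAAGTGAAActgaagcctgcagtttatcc
Ifit1bl1, chr19:34602043-34602092, minus strand: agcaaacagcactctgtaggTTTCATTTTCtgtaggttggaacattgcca
Ifit3, chr19:34583353-34583436, plus strand: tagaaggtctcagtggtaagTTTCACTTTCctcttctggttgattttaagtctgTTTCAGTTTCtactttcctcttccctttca
Isg15, chr4:156200855-156200916, minus strand: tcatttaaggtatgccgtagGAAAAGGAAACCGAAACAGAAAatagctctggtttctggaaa
Irgm1, chr11:48871421-48871470, minus strand: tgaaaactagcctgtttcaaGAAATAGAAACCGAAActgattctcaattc
Irgm2, chr11:58214893-58214942, plus strand: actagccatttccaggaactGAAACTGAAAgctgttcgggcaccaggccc
Gbp2, chr3:142620584-142620633, plus strand: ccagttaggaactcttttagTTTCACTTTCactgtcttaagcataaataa
Irf1, chr11:53769904-53769952, plus strand: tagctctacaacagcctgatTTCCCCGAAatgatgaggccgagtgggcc

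Ifit1 and Ifit1bl2 point away from each other at starts 146 bases apart, so their lines are the same bases read on opposite strands. The matches lay 104 and 85 bases before the Ifit1 start and 70 and 51 bases before that start of Ifit1bl2. Ifit1bl2 has a second window, at another start, with 0 matches of either motif. The Ifit3 stretch of 84 bases is also that of Ifit3b, with 0 differing bases. Isg15 has 3 overlapping ISRE matches, and Irgm1 has 2. The ISRE stretch of 50 bases in Irgm2 differs at 2 bases from that of Igtp, a member on the same chromosome that is listed at 0. Irf1 has 2 windows, of which 1 holds the GAS match and neither holds an ISRE match.

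Libraries within each group stood apart from one another in markers that have no part in the interferon response. In model 3, digestive enzymes of the pancreas summed to 5513 CPM (read counts per library scaled by TMM to a common depth), against between 4.35 and 26.2 CPM in the 5 other libraries. In control 3, markers of the distal small intestine summed to 2869 CPM, against between 30.7 and 58.2 CPM in the 5 others, while proximal markers summed to 471 CPM there, against between 3670 and 6176 CPM in the others. Epithelial markers summed to between 8900 and 12370 CPM, so the epithelium of the labelled tissue was present in every library. Fits and counts without both of these libraries, added after the data were seen, stand beside the results below where they are given.

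No member passed the test between model and control. The edgeR quasi-likelihood test with Benjamini-Hochberg adjustment called 0 of the 44 members and 0 of all 15904 genes (0.0%), with a smallest adjusted p of 0.851. At an unadjusted p under 0.05 it had 1 member, Ifit1bl2, and 765 genes (4.81%). That member was higher in the model libraries, as were 1.82% of all genes at that p, while 0 members and 2.99% of all genes were lower. DESeq2 called 25 genes (0.158%), of which 0 were members. The median log2 fold change of model over control was 0.12 over the members and -0.018 over all genes tested, and 33 of the 44 members lay above 0, against 48.2% of all genes. That count was 18 with library size alone, where the median of all genes was -0.21, and 22 with limma-voom. These fold changes are averages over libraries that differ widely, as follows.

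The members' values differed widely between libraries of the model group. Model 2 was the highest of the 6 libraries for 36 of 44 members (81.8%), against 9.39% of all genes tested. Model 1 was the lowest for 15 members (34.1%, all genes 30.9%) and model 3 for 12 (27.3%, all genes 11.2%). Control 3 was the lowest for 14 (31.8%, all genes 26.8%) and control 2 for 3. Model 2 and control 1 were the lowest for 0. Expressed as the deviation of log2(CPM + 1) from each gene's mean over all libraries, the median member stood at -0.35, 0.70 and -0.36 in model 1, 2 and 3, against 0.085, 0.16 and -0.15 in control 1, 2 and 3. Over all genes tested, the same median lay between -0.041 and 0.034 in every library. Members took 0.204%, 0.413% and 0.221% of all raw counts in model 1, 2 and 3, against 0.307%, 0.301% and 0.257% in control 1, 2 and 3. After TMM scaling they summed to 2478, 4088 and 2283 CPM in model 1, 2 and 3. The control sums were 2904, 3025 and 2204 CPM in control 1, 2 and 3, so control 3 was then the lowest by sum. Abundant genes dominate such sums, and Ifi27l2b had 61.1 CPM in control 3, against between 275 and 516 CPM in the other libraries. By the median deviation above, model 1 and model 3 lay lower than control 3.

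**Figure D1:**
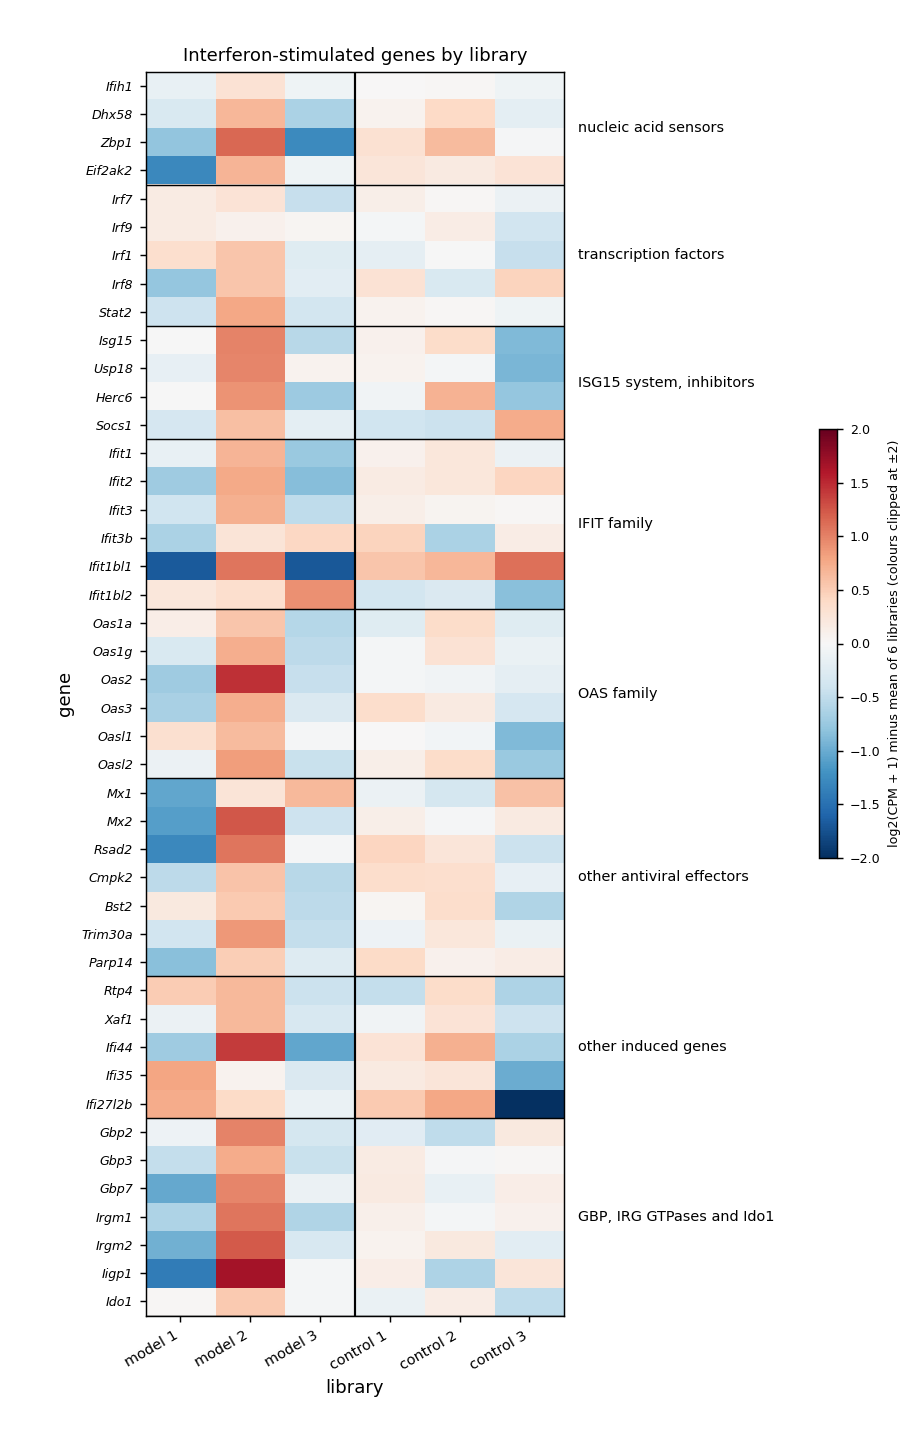
Deviation of each tested member's log2(CPM + 1) from its mean over the 6 libraries, with members in rows by role and libraries in columns, model before control. The colours are clipped at 2 either way, and the model 2 column is the highest in 36 of 44 rows.

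**Figure D2:**
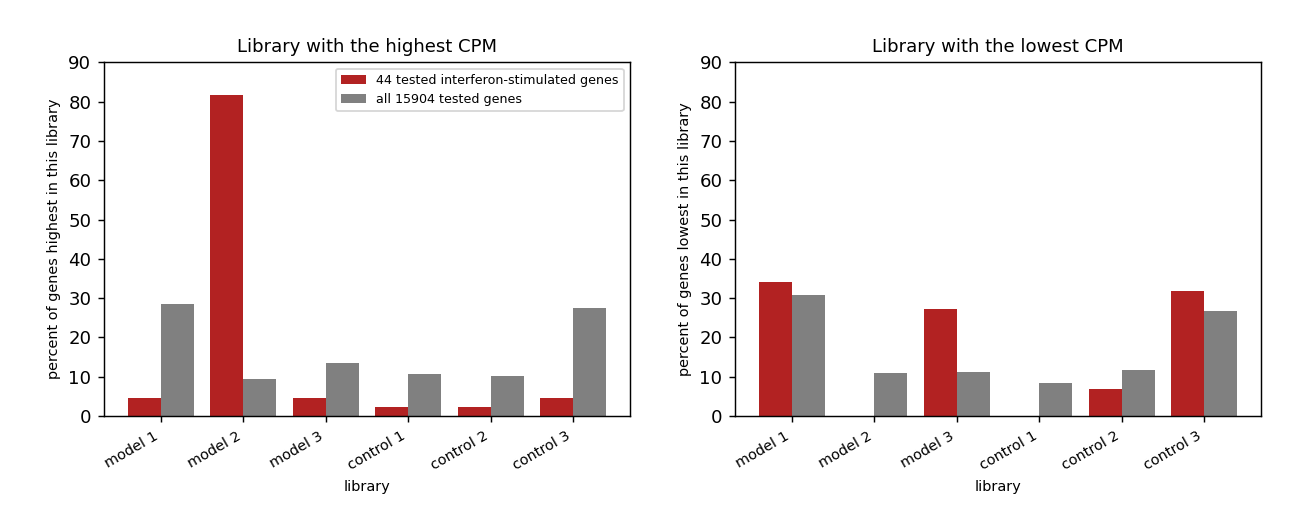
Share of genes, in percent, for which each library is the highest (left) or the lowest (right) of the 6, for the 44 tested members and for all 15904 tested genes. Model 2 is the highest for 81.8% of members and 9.39% of all genes.

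The order of model 2 against each control library was the same for most members. Model 2 exceeded all 3 control libraries in 37 members (84.1%), against 19.2% of all genes. Model 1 lay below all 3 control libraries in 25 members (56.8%, all genes 36.5%) and model 3 in 21 (47.7%, all genes 22.4%). Both lay below all 3 in 19 members (43.2%, all genes 12.2%), and in 18 of them model 2 lay above all 3 as well (40.9%, all genes 1.39%). Relative to the control mean, the median member measured 1.63-fold in model 2 (range 1.12 to 3.34), 0.728-fold in model 1 and 0.763-fold in model 3, whereas the medians of all genes were 0.991, 0.927 and 0.976. Model 2 lay above both model 1 and model 3 in 38 members (86.4%), against 27.5% of all genes, and was a median of 2.26-fold model 1. The SD of log2 values was larger in the model than in the control libraries for 38 of 44 members (86.4%), against 53.9% of all genes, with medians of 0.672 in the model and 0.313 in the control libraries. All 3 model libraries lay above all 3 control libraries for 1 member (all genes 4.73%), and all 3 lay below for 0 (all genes 6.33%).

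The order was also counted without model 3 and control 3. Model 2 was then the highest of the 4 libraries for 40 of 44 members (90.9%, all genes 20.3%), and model 1 the lowest for 29 (65.9%, all genes 36.9%). Model 2 lay above and model 1 below both control libraries for 29 members (65.9%, all genes 12.1%). The SD was larger in the model than in the control libraries for 40 members (90.9%, all genes 66.8%). In the fit without both, 35 of 44 members lay above 0, with a median of 0.20 (all genes 48.6% and -0.014).

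Levels per kilobase of transcript (RPKM) spanned a wide range among the members. Ifi27l2b had the highest mean level over all libraries, 333 RPKM, followed by Ifit1bl1 at 72.3 and Ifit1bl2 at 65.8 RPKM. Mx2 was the lowest at 1.19 RPKM, next to Socs1 at 1.35 and Usp18 at 1.52 RPKM. In bulk tissue, fewer cells of a type and less RNA per cell cannot be told apart.

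Sensors of foreign nucleic acid were read first, since they stand at the start of the pathway. Of 4 tested sensors, 0 were called, and model 2 was the highest library for 4 of 4. Ifih1 encodes MDA5, the sensor of long double-stranded RNA. It had 100.3, 136 and 104 CPM in model 1, 2 and 3, against 112, 114 and 105 CPM in control 1, 2 and 3. Model 2 was high and the other 5 libraries lay close together, so that the groups overlapped. Its log2 fold change was 0.044 (SE 0.19, edgeR adjusted p = 0.962), where SE is the standard error on the log2 scale, and it lay below 0 with upper quartile scaling or library size alone. Zbp1, a sensor of Z-form nucleic acid that can trigger necroptosis, had 30.6, 119.6 and 21.4 CPM in model 1, 2 and 3, against 65.8, 83.6 and 52.5 CPM in control 1, 2 and 3. Model 2 lay above and model 1 and 3 below every control library. The log2 fold change was -0.23 (SE 0.61, edgeR adjusted p = 0.931), and means were 57.2 ± 54.2 CPM in the model and 67.3 ± 15.6 CPM in the control libraries (SD, n = 3 each). Dhx58, which encodes the regulator LGP2, had 5.61, 12.0 and 4.27 CPM in model 1, 2 and 3, against 7.61, 9.81 and 6.17 CPM in control 1, 2 and 3. Eif2ak2, which encodes PKR, the kinase that halts translation on double-stranded RNA, had 19.9, 80.5 and 47.2 CPM in model 1, 2 and 3, against 59.4, 56.8 and 60.8 CPM in control 1, 2 and 3. Both showed the same pattern, with model 2 highest and model 1 and model 3 below all control libraries. Rigi, the table's name for the gene of RIG-I, was not counted as a member and had 65.0, 81.4 and 57.7 CPM in model 1, 2 and 3, against 77.0, 69.2 and 53.8 CPM in control 1, 2 and 3, so its model and control libraries overlapped.

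Transcription factors relay the receptor signal to the genes. Of the 5 among the members, 0 were called, and model 2 was the highest library for 4. Irf1, a factor induced mainly by interferon gamma through GAS sites, had 259, 301 and 172 CPM in model 1, 2 and 3, against 180.3, 204 and 148 CPM in control 1, 2 and 3. Model 1 and 2 lay above the control libraries and model 3 between them. Its log2 fold change was 0.46 (SE 0.27, edgeR adjusted p = 0.851), and 0.29 without model 2. Irf8, which drives the development of myeloid cells and B cells, had 68.0, 173 and 102 CPM in model 1, 2 and 3, against 144, 95.1 and 159.7 CPM in control 1, 2 and 3, with model 1 lowest and control 3 next to the top. The log2 fold change was -0.22 (SE 0.37, edgeR adjusted p = 0.892). Stat2, the transactivating part of ISGF3, had 54.7, 125 and 56.7 CPM in model 1, 2 and 3, against 77.3, 74.6 and 69.3 CPM in control 1, 2 and 3. Irf7, which amplifies production of type I interferon, had 101, 109 and 65.4 CPM in model 1, 2 and 3, against 98.0, 91.7 and 83.6 CPM in control 1, 2 and 3. Irf9, the DNA-binding part of ISGF3, had 66.2, 62.3 and 60.0 CPM in model 1, 2 and 3, against 57.0, 64.8 and 44.7 CPM in control 1, 2 and 3. Stat2 had model 2 above and model 1 and 3 below all control libraries, whereas model 1 was second for Irf7 and highest for Irf9.

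**Figure D3:**
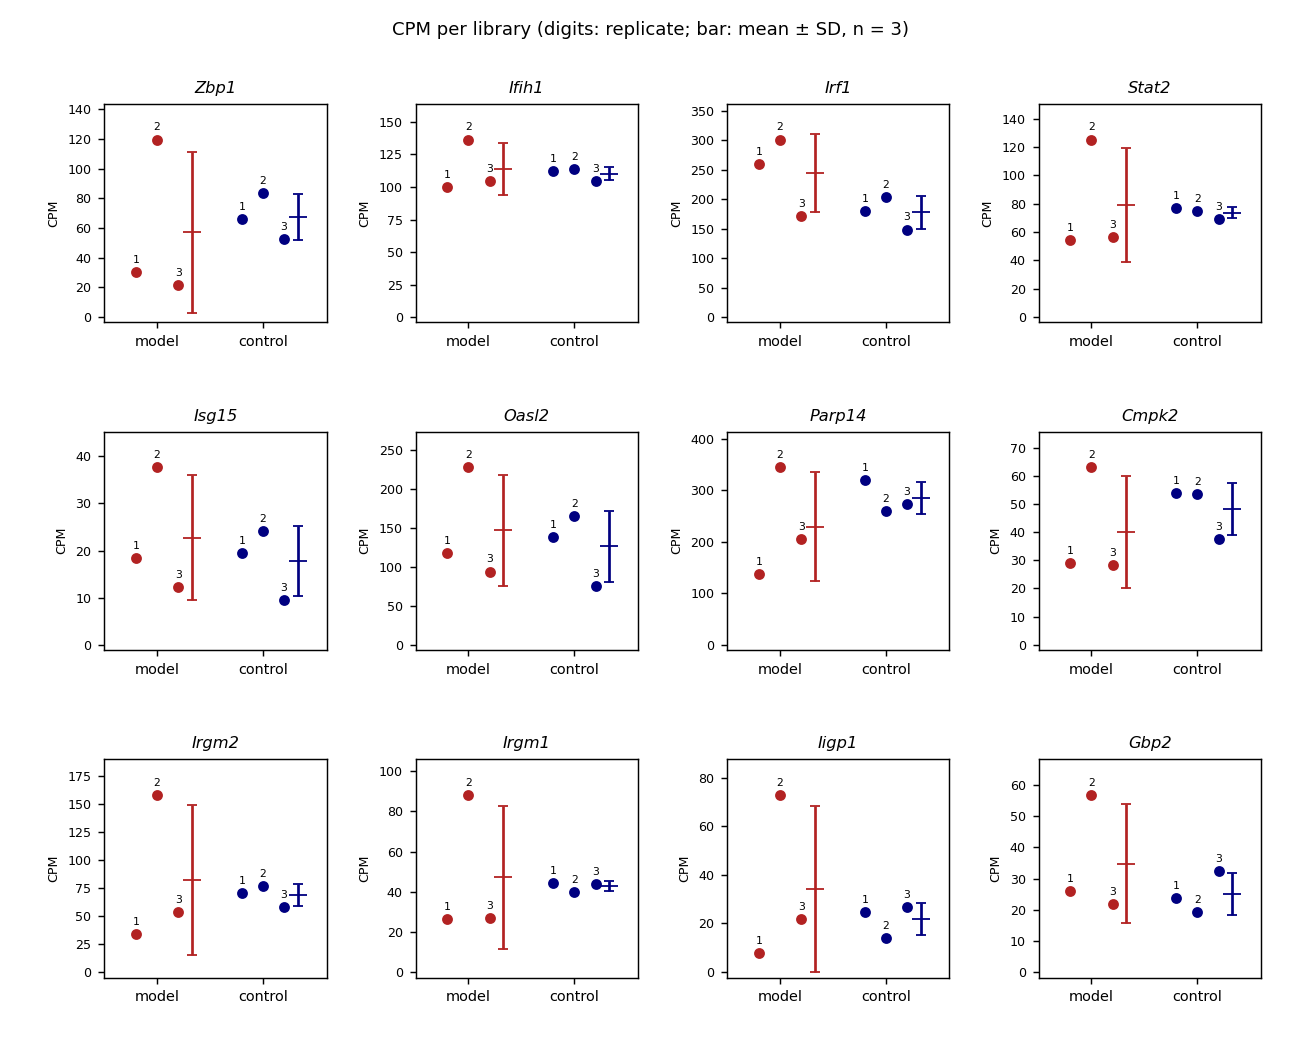
CPM of selected members in each library, model left of control, with the group mean as a bar and its SD as an error bar (n = 3). The members drawn were picked by hand and all have model 2 as the highest library, which holds for 36 of the 44 tested members. Members with another order, such as Ifit1bl2, Ifi35 and Mx1, are not drawn here.

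The ISG15 system tags proteins with a ubiquitin-like modifier, and its members include feedback inhibitors of the receptor signal. Of these 4 genes 0 were called, and model 2 was the highest for 3. Isg15, the modifier itself, had 18.3, 37.7 and 12.2 CPM in model 1, 2 and 3, against 19.5, 24.1 and 9.55 CPM in control 1, 2 and 3. Model 2 was the highest and control 3 the lowest, so the groups overlapped. Its log2 fold change was 0.36 (SE 0.48, edgeR adjusted p = 0.870). Herc6, the main ligase that attaches ISG15 in the mouse, had 23.8, 45.1 and 14.0 CPM in model 1, 2 and 3, against 22.6, 39.3 and 13.4 CPM in control 1, 2 and 3, and its log2 fold change was 0.14 (SE 0.51, edgeR adjusted p = 0.954). Usp18, which removes ISG15 and blocks the type I receptor, had 3.32, 8.57 and 4.10 CPM in model 1, 2 and 3, against 4.09, 3.74 and 1.59 CPM in control 1, 2 and 3. Socs1, an inhibitor of JAK kinases, had 2.70, 6.08 and 3.05 CPM in model 1, 2 and 3, against 2.52, 2.46 and 6.82 CPM in control 1, 2 and 3. Control 3 was lowest for Isg15, Herc6 and Usp18 and highest for Socs1.

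The IFIT proteins bind RNA ends and block translation of viral messages. Of the 6 tested, 0 were called and 1, Ifit1bl2, had an unadjusted p under 0.05. Ifit1bl2, an Ifit1-like gene next to Ifit1, had 240.5, 259 and 388 CPM in model 1, 2 and 3, against 159, 167 and 115 CPM in control 1, 2 and 3. All 3 model libraries lay above all 3 control libraries, and model 3, not model 2, was the highest. The log2 fold change was 1.01 (SE 0.27, edgeR adjusted p = 0.851), and means were 296 ± 80.3 CPM in the model and 147 ± 28.3 CPM in the control libraries (SD, n = 3 each). Ifit1, which shares the printed bases with it, had 39.1, 70.6 and 25.5 CPM in model 1, 2 and 3, against 46.3, 51.1 and 40.2 CPM in control 1, 2 and 3. Ifit1 had model 2 above and model 1 and 3 below the control libraries, the order of 18 of the 44 members. Ifit1bl1, another Ifit1-like gene, had 37.9, 261 and 37.5 CPM in model 1, 2 and 3, against 181, 197 and 266 CPM in control 1, 2 and 3. Model 1 and 3 lay far below the other 4 libraries, which lay between 181 and 266 CPM. Its log2 fold change was -0.94 (SE 0.74, edgeR adjusted p = 0.851), and means were 112 ± 129 CPM in the model and 215 ± 45.2 CPM in the control libraries (SD, n = 3 each). Ifit2 had 6.06, 18.5 and 5.44 CPM in model 1, 2 and 3, against 12.0, 12.6 and 14.6 CPM in control 1, 2 and 3. Ifit3 had 7.86, 18.1 and 7.27 CPM in model 1, 2 and 3, against 11.7, 11.2 and 10.9 CPM in control 1, 2 and 3. Its copy Ifit3b had 1.90, 4.33 and 4.99 CPM in model 1, 2 and 3, against 5.07, 1.90 and 3.97 CPM in control 1, 2 and 3. Ifit2 and Ifit3 had model 2 highest, whereas Ifit3b, with few counts, had control 1 highest. Part of the 50-base stretches of these transcripts also occurs in other genes (51.2% for Ifit3, 45.0% for Ifit3b, 9.3% for Ifit1bl2 and 6.5% for Ifit1bl1), so reads of Ifit3 and Ifit3b may have been split between them by the counting.

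**Figure D4:**
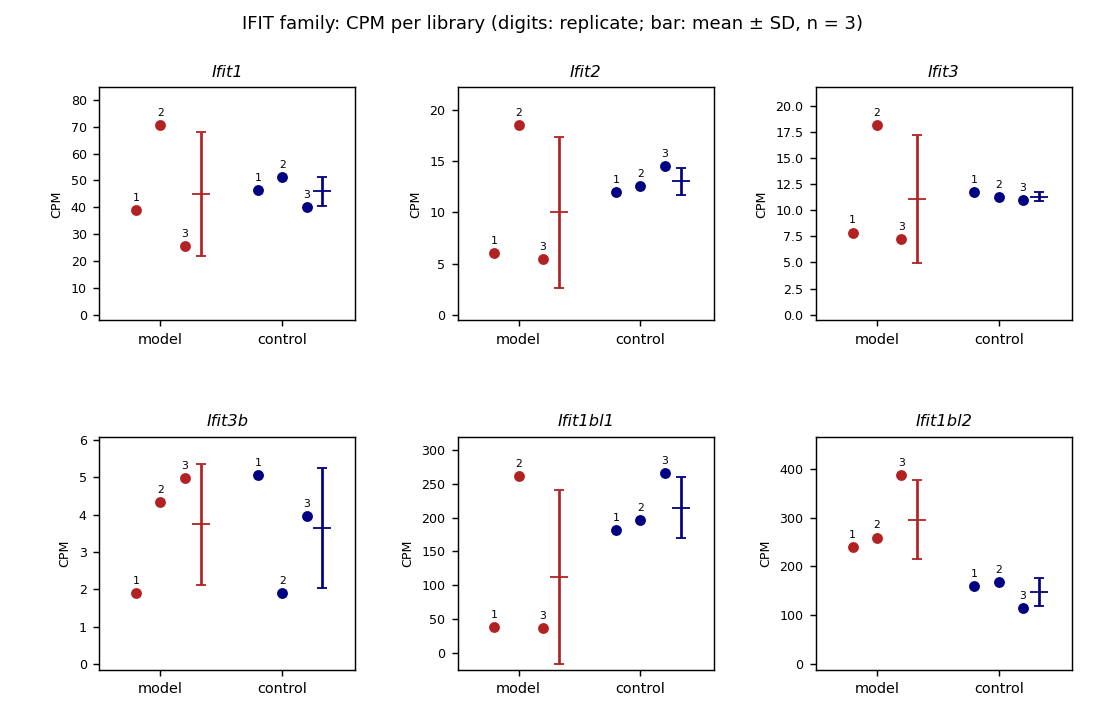
CPM of the 6 IFIT genes in each library, model left of control, with group means and SDs (n = 3). Ifit1bl2 is the only one of the 6 whose 3 model libraries all lie above the 3 control libraries.

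The OAS family makes the messenger that activates the RNA-cutting enzyme RNase L. Of 6 members, 0 were called and model 2 was highest for 6. Oasl2, an OAS-like protein of the same family, had 118, 228 and 93.9 CPM in model 1, 2 and 3, against 138, 165 and 75.9 CPM in control 1, 2 and 3. Model 2 was highest and control 3 lowest, and the log2 fold change was 0.22 (SE 0.41, edgeR adjusted p = 0.907). Oasl1, which in the mouse restrains translation of Irf7, had 116, 145 and 91.0 CPM in model 1, 2 and 3, against 92.7, 89.1 and 49.6 CPM in control 1, 2 and 3, and its log2 fold change was 0.61 (SE 0.30, edgeR adjusted p = 0.851), and 0.39 without control 3. Oas2 had 7.86, 39.2 and 9.52 CPM in model 1, 2 and 3, against 13.2, 12.8 and 11.8 CPM in control 1, 2 and 3. Its model 2 value stood apart from the 5 other libraries. Oas3 had 35.7, 94.4 and 46.3 CPM in model 1, 2 and 3, against 72.9, 64.5 and 44.9 CPM in control 1, 2 and 3. Oas1a had 47.7, 64.5 and 28.8 CPM in model 1, 2 and 3, against 36.8, 56.4 and 36.6 CPM in control 1, 2 and 3. Oas1g had 19.9, 41.9 and 16.9 CPM in model 1, 2 and 3, against 24.2, 30.6 and 22.5 CPM in control 1, 2 and 3. All 3 had their highest value in model 2. Reads of Oas1a and Oas1g are uncertain, since 57.6% and 45.7% of their 50-base stretches occur in other genes.

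The other antiviral effectors attack viral replication, assembly or release. Of 7, 0 were called and model 2 was highest for 6. Parp14, an ADP-ribosyltransferase, had 138, 345 and 205 CPM in model 1, 2 and 3, against 319.8, 261 and 274 CPM in control 1, 2 and 3. Model 1 and 3 lay below all control libraries, and the log2 fold change was -0.31 (SE 0.34, edgeR adjusted p = 0.858), with -0.73 without model 2 and -0.047 without model 1. Cmpk2, a mitochondrial nucleotide kinase encoded beside Rsad2, had 29.0, 63.2 and 28.3 CPM in model 1, 2 and 3, against 53.9, 53.4 and 37.5 CPM in control 1, 2 and 3, and its log2 fold change was -0.26 (SE 0.35, edgeR adjusted p = 0.868), with -0.75 without model 2, -0.074 without model 1 and -0.063 without model 3. Rsad2 (viperin), which makes a chain-terminating nucleotide, had 5.12, 30.2 and 13.6 CPM in model 1, 2 and 3, against 19.1, 16.6 and 10.1 CPM in control 1, 2 and 3. Mx2, a dynamin-like GTPase, had 1.18, 10.2 and 2.54 CPM in model 1, 2 and 3, against 4.07, 3.63 and 4.32 CPM in control 1, 2 and 3. Rsad2 and Mx2 were among the members with the widest gap between model 2 and model 1, 5.89-fold and 8.63-fold. Mx1, a nuclear relative of Mx2 that blocks influenza virus, had 5.95, 16.1 and 21.4 CPM in model 1, 2 and 3, against 12.1, 10.1 and 20.4 CPM in control 1, 2 and 3, with model 3 at the top and model 1 at the bottom. Trim30a had 30.1, 72.4 and 28.1 CPM in model 1, 2 and 3, against 36.8, 46.2 and 35.7 CPM in control 1, 2 and 3. Bst2, the tetherin that holds budding virus at the cell surface, had 35.0, 44.1 and 20.7 CPM in model 1, 2 and 3, against 31.3, 38.9 and 19.7 CPM in control 1, 2 and 3. Trim30a and Bst2 followed model 2 as the highest library.

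Among 5 other induced genes 0 were called, and model 2 was highest for 3. Ifi27l2b, the most abundant member, had 506, 392 and 275 CPM in model 1, 2 and 3, against 435, 516 and 61.1 CPM in control 1, 2 and 3. Control 3, the library with distal intestine markers, was far below the 5 others, and control 2 was the highest. Its log2 fold change was 0.21 (SE 0.68, edgeR adjusted p = 0.946), and without both libraries numbered 3, which was tried after the data were seen, it was -0.086. Ifi35 had 92.4, 55.8 and 43.5 CPM in model 1, 2 and 3, against 60.5, 62.9 and 26.1 CPM in control 1, 2 and 3, with model 1 highest, and its log2 fold change was 0.36 (SE 0.40, edgeR adjusted p = 0.859). Ifi35 overlaps another gene's exons on the opposite strand over 16.8% of its exon length. The strand setting of the counting is not given in the sources used here. On the same strand, other genes' exons overlap 13.9% of Rtp4, 13.7% of Herc6 and 11.3% of Gbp7, so their values are uncertain too. Rtp4 had 29.6, 32.9 and 15.0 CPM in model 1, 2 and 3, against 14.5, 26.8 and 13.1 CPM in control 1, 2 and 3. Xaf1, which binds the inhibitor of apoptosis XIAP, had 19.4, 33.7 and 16.7 CPM in model 1, 2 and 3, against 20.2, 25.8 and 15.7 CPM in control 1, 2 and 3. Ifi44 had 7.20, 34.5 and 5.56 CPM in model 1, 2 and 3, against 15.3, 21.0 and 7.72 CPM in control 1, 2 and 3. Model 2 was highest for Rtp4, Xaf1 and Ifi44, by the widest margin for Ifi44.

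The guanylate-binding proteins and immunity-related GTPases attack vacuoles that hold parasites or bacteria and are induced chiefly by interferon gamma. Of 7 tested genes in this group, Ido1 included, 0 were called and model 2 was highest for 7. Iigp1 had 7.89, 73.0 and 21.7 CPM in model 1, 2 and 3, against 24.7, 14.2 and 26.6 CPM in control 1, 2 and 3. Model 2 was 9.25-fold model 1, the widest such gap among the members, and 3.34-fold the control mean. Irgm2 had 34.2, 159 and 54.0 CPM in model 1, 2 and 3, against 71.2, 77.5 and 58.1 CPM in control 1, 2 and 3, and its log2 fold change was 0.26 (SE 0.52, edgeR adjusted p = 0.912), or -0.044 with limma-voom. Irgm1, which keeps the effector GTPases off the cell's own membranes, had 26.6, 88.2 and 26.8 CPM in model 1, 2 and 3, against 44.5, 40.0 and 44.0 CPM in control 1, 2 and 3, and its log2 fold change was 0.14 (SE 0.47, edgeR adjusted p = 0.947), or -0.086 with limma-voom. Both had model 1 lowest, below every control library. Gbp2 had 25.9, 56.9 and 21.7 CPM in model 1, 2 and 3, against 23.7, 19.3 and 32.3 CPM in control 1, 2 and 3. Gbp7 had 12.0, 50.9 and 23.2 CPM in model 1, 2 and 3, against 29.0, 22.7 and 28.1 CPM in control 1, 2 and 3. Gbp3 had 12.6, 30.8 and 13.0 CPM in model 1, 2 and 3, against 20.1, 17.6 and 18.3 CPM in control 1, 2 and 3. Model 2 exceeded every control library for each of them. Ido1, the first enzyme of tryptophan breakdown to kynurenine, had 26.7, 38.0 and 25.5 CPM in model 1, 2 and 3, against 23.7, 29.0 and 18.0 CPM in control 1, 2 and 3. For Ido1, model 2 was 1.61-fold the control mean.

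The interferon genes themselves had few or no counts. Of 21 such genes, 17 were listed at 0 in each library and 0 reached the count filter. Ifng had 8, 17 and 4 counts in model 1, 2 and 3, against 8, 14 and 1 counts in control 1, 2 and 3. Ifnb1, Ifnl2 and Ifnl3 were listed at 0, where a floor of 3 counts is between 0.0662 and 0.0857 CPM. Ifna7, named after its values were seen, had 12 counts in model 1 and 0 in the 5 other libraries. Of the induction pathway genes 2 of 16, and of the other interferon-stimulated genes 8 of 59, are also listed at 0, and a listed 0 was not read as absence of the transcript. Model 2 and control 2 had the most Ifng counts, and a difference between groups was not detectable at this depth.

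Receptors and proximal signalling genes gave 0 calls of 10, with 10 of 10 log2 fold changes above 0 and a median of 0.21, against 6 of 10 and 0.036 with library size alone and 9 of 10 and 0.23 without both libraries numbered 3. Ifnar2, a subunit of the type I receptor, had 10.4, 8.55 and 10.2 CPM in model 1, 2 and 3, against 7.34, 5.05 and 5.84 CPM in control 1, 2 and 3. All model libraries lay above all control libraries (all genes 4.73%), with a log2 fold change of 0.68 (SE 0.25, edgeR adjusted p = 0.851). Ifngr1, the ligand-binding chain of the interferon gamma receptor, had 292, 192 and 264 CPM in model 1, 2 and 3, against 172, 194 and 209 CPM in control 1, 2 and 3, and its log2 fold change was 0.38 (SE 0.23, edgeR adjusted p = 0.851). Ifngr2, the other chain of that receptor, had 312, 179 and 184 CPM in model 1, 2 and 3, against 189, 257 and 146 CPM in control 1, 2 and 3, with a log2 fold change of 0.19 (SE 0.32, edgeR adjusted p = 0.895). Model 1, not model 2, was the highest library for both chains. Among inhibitors, 3 of 7 lay above 0, with a median of -0.058, and 0 of 7 with library size alone. The phosphatase gene Ptpn11 had 75.7, 129 and 123 CPM in model 1, 2 and 3, against 117, 122 and 112 CPM in control 1, 2 and 3, with a log2 fold change of -0.10 (SE 0.24, edgeR adjusted p = 0.929). The repressor gene Irf2 had 84.7, 86.4 and 117 CPM in model 1, 2 and 3, against 85.1, 92.9 and 86.1 CPM in control 1, 2 and 3, with a log2 fold change of 0.13 (SE 0.20, edgeR adjusted p = 0.885). Both were highest in a model library and lowest in model 1. In the induction pathway, 4 of 14 tested genes lay above 0, with a median of -0.12, against 7 of 14 and -0.0096 with limma-voom, -0.36 with library size alone, and 8 of 14 and 0.078 without both libraries numbered 3. The kinase gene Tbk1 had 144, 151 and 156 CPM in model 1, 2 and 3, against 131, 141 and 104 CPM in control 1, 2 and 3. Its model libraries all lay above the control libraries (all genes 4.73%). The log2 fold change of Tbk1 was 0.27 (SE 0.19, edgeR adjusted p = 0.851), or 0.12 without both libraries numbered 3. Unc93b1, which escorts Toll-like receptors to endosomes, had 71.0, 117 and 78.6 CPM in model 1, 2 and 3, against 119, 89.4 and 102 CPM in control 1, 2 and 3, and its log2 fold change was -0.22 (SE 0.24, edgeR adjusted p = 0.858). Of these lists, 0 genes were called.

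A second list of 59 other interferon-stimulated genes, chosen with earlier results known, gave 50 tested genes and 0 calls, with 26 of 50 above 0 and a median of 0.0053, against 9 of 50 with library size alone and 37 of 50 without both libraries numbered 3. Model 2 was highest for 35 of 50 (70.0%, all genes 9.39%) and lay above all control libraries for 36 (all genes 19.2%). Model 1 and model 3 both lay below all control libraries for 9 of 50, against 19 of 44 members and 12.2% of all genes. Lgals9, which encodes galectin-9, had 651, 776 and 449 CPM in model 1, 2 and 3, against 650.5, 667 and 378 CPM in control 1, 2 and 3, and a log2 fold change of 0.15 (SE 0.33, edgeR adjusted p = 0.920). Lgals3bp had 462, 479.8 and 338 CPM in model 1, 2 and 3, against 358, 435 and 196 CPM in control 1, 2 and 3, and a log2 fold change of 0.37 (SE 0.33, edgeR adjusted p = 0.851). The SD was larger in the model libraries for 34 of 50 (68.0%, all genes 53.9%). By motif, model 2 was highest for 17 of 21 tested members with an ISRE in a window, 3 of 4 with GAS alone, 7 of 8 with neither and 9 of 11 without a window, and differences between these counts were not tested.

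Markers of the cell types in the tissue are given as summed CPM, which abundant genes dominate, and no list had its highest sum in model 2. Leukocyte markers (5 of 5 tested) summed to 219.5, 338 and 394 CPM in model 1, 2 and 3, against 282, 199.9 and 489 CPM in control 1, 2 and 3. Macrophage markers (7 of 7 tested) summed to 212, 246 and 194 CPM in model 1, 2 and 3, against 264, 126 and 219 CPM in control 1, 2 and 3. Control 3 was highest for leukocytes and control 1 for macrophages, with model 2 second for macrophages. By the median deviation used for the members, macrophage markers stood at 0.019, 0.30 and -0.19 in model 1, 2 and 3, against 0.28, -0.69 and 0.084 in control 1, 2 and 3, with model 2 highest. Cytotoxic lymphocyte markers (5 of 7 tested) summed to 420.0, 305 and 176 CPM in model 1, 2 and 3, against 169, 267 and 62.5 CPM in control 1, 2 and 3. T cell markers (6 of 7 tested) summed to 156, 152 and 126 CPM in model 1, 2 and 3, against 104, 118 and 85.4 CPM in control 1, 2 and 3. Both were highest in model 1. Plasmacytoid dendritic cell markers (6 of 7 tested) summed to 68.6, 47.9 and 126 CPM in model 1, 2 and 3, against 62.5, 40.1 and 88.8 CPM in control 1, 2 and 3, with Cox6a2 listed at 0. Epithelial markers summed to 12370, 8900 and 8969 CPM in model 1, 2 and 3, against 10320, 9695 and 11260 CPM in control 1, 2 and 3. By sum, model 3 was highest for the plasmacytoid list and model 1 for the epithelium. The plasmacytoid median deviation was -0.16, -0.41 and -0.0028 in model 1, 2 and 3. It was 0.014, -0.47 and 0.40 in control 1, 2 and 3, so control 3 was highest by that measure. B cell markers (5 of 6 tested) summed to 12.5, 19.1 and 144 CPM in model 1, 2 and 3, against 36.3, 13.2 and 229 CPM in control 1, 2 and 3, with Ms4a1 listed at 0. Smooth muscle markers summed to 976, 762 and 793 CPM in model 1, 2 and 3, against 1031, 1561 and 1686 CPM in control 1, 2 and 3. Control 3 was highest for both. Their part in the members' values was not tested.

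Leaving out model 2 turned the sign of the fold change for 24 of 44 members. Without it, 35 of 44 members lay below 0 in edgeR (all genes 53.1%), and 8 had an unadjusted p under 0.05 (all genes 4.96%), with 0 called. Those 8 were Zbp1, Ifi44, Irgm1, Cmpk2, Parp14, Ifit2, Ifit1bl1 and Ifit1bl2. Of these, Ifit1bl2 lay above 0, at 1.1, and the others lay below 0. Model 2 was the highest library for 36 of 44 members, so leaving it out lowers the model mean of those 36 by construction. Leaving out any other library gave 1 or 2 members at that p in edgeR (all genes 2.34% to 6.1%). The median member was -0.44 without model 2, against 0.12 with all libraries. Ifit1bl1 measured -2.50 without it, and Ifit1bl2 stayed between 0.77 and 1.13 whichever library was left out. With both libraries numbered 3 left out, a fit added after the data were seen, Ifit1bl2 measured 0.61 and Ifit1bl1 -0.34.

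**Figure D5:**
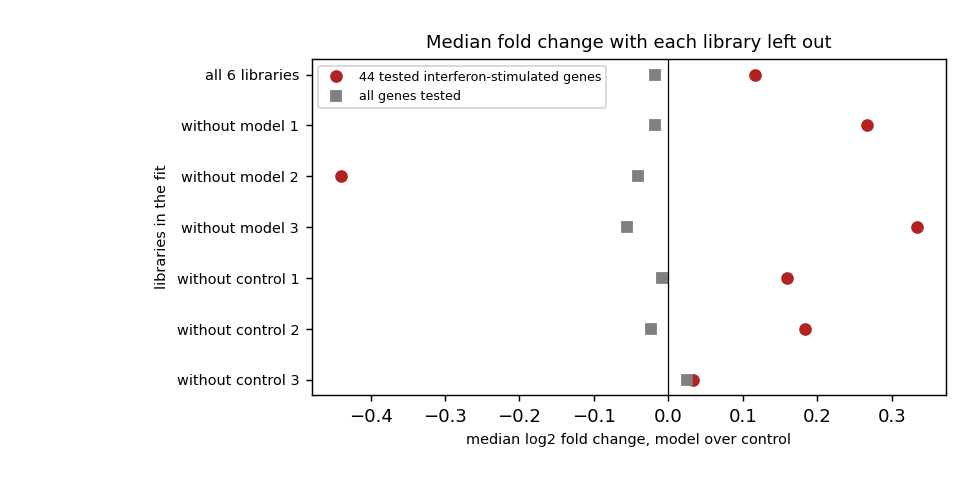
Median log2 fold change of model over control, for the tested members (circles) and for all genes tested (squares), with all 6 libraries and with each library left out in turn. The members' median is 0.12 with all libraries and -0.44 without model 2, the only fit in which it lies below 0.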

How the data were processed

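The 6 libraries hold poly-A selected RNA of mouse small intestine, with the label model on 3 and control on 3. The authors deposited raw read counts per gene and library, and FastQC, Trimmomatic, STAR and featureCounts with genome build GRCm39 were used per the submitters' processing notes. Not given in the sources used here were the annotation and the strand and multi-mapping settings, so values of overlapping, antisense and near-identical genes are uncertain. The 6 columns were matched to samples by library name, and 0 columns were unmatched.

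Genes were kept by filterByExpr (15904 of 33017) and scaled by TMM. edgeR 4.0.16 in R 4.3.3 fitted a robust quasi-likelihood model of the group, and a Benjamini-Hochberg adjusted p under 0.05 over all genes was called. Each SE is the size of the log2 fold change over the square root of its F, and the biological coefficient of variation was 40.7%. The script was tested on simulated data with less variation than these data and large planted changes. That test does not measure the power to detect changes here. CPM and RPKM were computed here from the counts. No pair of libraries within a group was a duplicate, with a chi-square of 122.7 to 526.8 per degree of freedom between their counts. Transcript lengths, shared 50-base stretches and exon overlaps came from GENCODE M21 on GRCm38, another build than that of the counts.

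Fold changes are printed for the 2 most abundant members of each of 8 role groups, for the 2 most abundant tested genes of each other interferon list, and for genes of those lists at an unadjusted p under 0.05. The members and lists were chosen with earlier results of these data known. The alternatives tried were scaling by library size alone, by upper quartile or by RLE, DESeq2 1.42.0, limma-voom (limma 3.58.1), other filters on low counts, a non-robust dispersion, the replicate number as a block, each library left out, and, chosen after seeing the data, both libraries numbered 3 left out.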

Additional observations from a re-analysis of the deposited data

How the results depend on the processing

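Members called were 0 under every alternative run. DESeq2 called 25 genes. With library size alone, 18 members lay above 0, against 33 with TMM, but that scaling moved the median of all genes to -0.21 (28.0% above 0), and the members' median was -0.02. Leaving out 1 library gave a median between -0.44 (without model 2) and 0.33 (without model 3), and between 9 (without model 2) and 37 (without model 1) members above 0. Model 2 was the highest library for 35 to 37 of 44 members under the other scalings. Deviations from the group means correlated at -0.0561, -0.312 and 0.328 between the model and control libraries numbered 1, 2 and 3. The highest value of any pair was 0.549, between model 1 and control 2. The labels do not state whether libraries were paired. With the replicate block, 0 genes were called and 22 members lay above 0, as also with limma-voom.

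Signs turned as follows, and the cause was not tested. Ifih1 measured -0.031 with upper quartile scaling and -0.14 with library size alone. Irgm1 measured -0.012 with library size alone, -0.086 with limma-voom and -0.12 with the replicate block. Irgm2 measured -0.044 with limma-voom and with the replicate block. Without both libraries numbered 3, Zbp1 measured 0.0069, Irf8 0.0058 and Ifi27l2b -0.086. Leaving out 1 library gave ranges of -0.41 to 0.64 for Herc6, -0.26 to 0.68 for Ifi27l2b, -0.0058 to 0.58 for Ifi35, -0.10 to 0.13 for Ifih1, -0.65 to 0.045 for Irf8, -0.68 to 0.43 for Irgm1, -0.64 to 0.63 for Irgm2, -0.21 to 0.67 for Isg15, -0.25 to 0.47 for Oasl2 and -1.37 to 0.16 for Zbp1. Each tested member had at least 34 counts in every library, while the interferon genes had too few counts to be tested.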
